A study of Mus musculus with 8 samples.

Results

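The expression of 9 genes that write, copy, read or oxidize DNA methylation was analysed in cultured mouse keratinocytes (KCs): Dnmt1, Dnmt3a, Dnmt3b, Uhrf1, Uhrf2, Tet1, Tet2, Tet3 and Hells. They were chosen by gene symbol from the 41457 genes listed for each sample, and all 9 were found. KCs are the epithelial cells of the epidermis. They were prepared from tails of adult C57BL/6 mice of wildtype genotype, were left untreated in serum-free medium with 0.06 mM Ca++, and were cultured for 1 week (4 samples) or for 3 weeks (4 samples). Poly(A) RNA was sequenced, and each library gave between 13896807 and 20026084 exon reads at 1 week and between 14096649 and 18127283 at 3 weeks. Per the study, the same batches of KCs were used at both times, but the labels do not tie a sample to an animal or a batch, so p-values measure the spread between these samples. Levels are given as RPKM, in which reads are divided by exon length and by how many reads the library mapped. Log2 fold changes (3 weeks over 1 week) and adjusted p-values are from edgeR's quasi-likelihood test on the exon reads, with Benjamini-Hochberg adjustment over all tested genes. In such bulk samples, fewer cells that express a gene and less RNA per cell cannot be told apart.

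DNA methylation in mammals is the addition of a methyl group to cytosine, mostly where a guanine follows. Dnmt3a and Dnmt3b place new marks, whereas Dnmt1 copies the marks of the old strand onto the new strand after DNA replication, guided by the hemimethylated-DNA binding protein Uhrf1. Hells, a chromatin remodeler, gives these enzymes access to packed DNA, and the Tet enzymes oxidize the methyl group as a first step of its removal. In the epidermis, Dnmt1 and Uhrf1 are known as factors of the basal, dividing KCs.

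The samples carried high levels of the KC genes Krt5 and Krt14, with summed RPKM of 6 KC markers between 13226 and 15528 at 1 week and between 7872 and 9518 at 3 weeks, 2 of them (Krt5 and Itga6) lower after 3 weeks. The sums over 6 fibroblast markers lay between 2.30 and 4.65 RPKM in all samples, those over 6 immune markers between 1.402 and 4.55, and those over 4 endothelial markers between 0.275 and 0.559. No gene of these lists was called in edgeR, none had an unadjusted p under 0.05, none was called in DESeq2, and the Langerhans cell gene Cd207 was at 0 in all samples. Sums over 6 melanocyte markers reached 15.5 and 20.997 RPKM in replicates 3 and 4 of 1 week, lay between 1.28 and 5.60 in the other samples, and included 1 called gene (Pmel, log2 fold change -2.06, called in 18 of 22 alternatives). Merkel cell markers summed to at most 0.529 RPKM and had too few reads for the test. Among them, Krt20 had at most 1 exon read per sample at 1 week and 19, 12, 16 and 8 at 3 weeks. It was called higher in all 6 alternatives that tested it (log2 fold changes 4.29 to 5.22, edgeR). The other Merkel cell markers, Atoh1 and Isl1, had at most 1 exon read per sample at 1 week and 0 at 3 weeks. The sums at 3 weeks are therefore those of Krt20 alone. One library stood apart by transcript length: in replicate 3 of 3 weeks, the 3147 longest tested genes deviated from their group mean by 0.57 log2 units less than the 3147 shortest, and in replicate 4 of 3 weeks by 0.41 more. Results for Dnmt3a, Tet2 and Tet3, the longest of the 9 genes, are given with and without these libraries.

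Of the 9 genes, 8 had enough reads to be tested. Uhrf1, Hells and Dnmt3b fell after 3 weeks, none of the 8 rose (0 at an unadjusted p under 0.05 and 0 in DESeq2), and the median log2 fold change of the 8 was -0.86. Over all 12590 tested genes, 17.0% were called lower and 15.7% higher at an adjusted p under 0.05, and the median log2 fold change was 0.03. On the log2(RPKM + 0.1) scale that median was -0.16, so a fall read from RPKM appears slightly larger. Leaving out any single sample did not end these 3 calls.

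**Figure D1:**
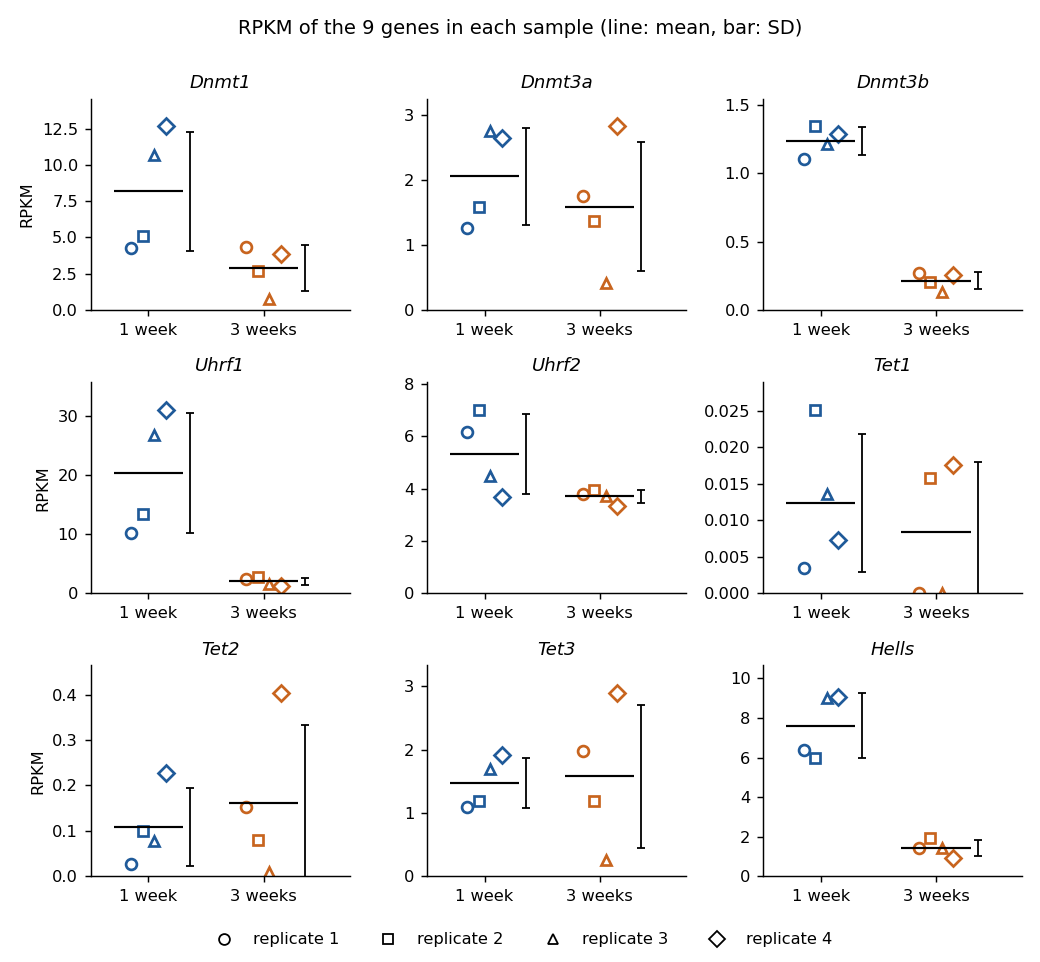
RPKM (vertical axes, each starting at 0) of the 9 genes in KCs cultured for 1 week (blue) and 3 weeks (orange), with a symbol for each replicate, a line for the mean of 4 samples and a bar for the SD, cut at 0 for Tet1 and Tet2. The samples of Uhrf1, Hells and Dnmt3b do not overlap between the times, as was so for 37.0% of all tested genes. Replicate 3 of 3 weeks is the lowest sample for Dnmt1, Dnmt3a, Dnmt3b, Tet2 and Tet3.

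Uhrf1 (ENSMUSG00000001228, chr17:56303321-56323486 on GRCm38, plus strand), the protein that binds hemimethylated DNA and brings in Dnmt1, fell the most. It had 10.1, 13.4, 26.7 and 31.0 RPKM in replicates 1 to 4 of 1 week, and 2.39, 2.70, 1.54 and 1.295 RPKM in those of 3 weeks. The lowest sample at 1 week lay well above the highest at 3 weeks, although the 1 week samples themselves spread from 10.1 to 31.0. The log2 fold change was -3.19 (SE 0.41, adjusted p = 0.000717, edgeR), a 9.15-fold fall, with 821 to 2331 exon reads per sample at 1 week and 81 to 190 at 3 weeks.

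The DNA before both Uhrf1 starts listed by RefSeq is shown because Uhrf1 had the largest change. The first stretch (234 bases, chr17:56303087-56303320) ends where the gene begins in the deposited tables, and the second (250 bases, chr17:56304063-56304312) precedes a start inside the gene. Capitals mark a core of the kind bound by E2F factors, the regulators of S phase genes. Both strands were searched for TTCCCGC and its variant TTCGCGC, for TTGCCGC, and for the related form TTGGCGC. Sequences were taken from RefSeq on GRCm38.p6 and run 5′ to 3′ on the strand of the gene.
Uhrf1, outer start: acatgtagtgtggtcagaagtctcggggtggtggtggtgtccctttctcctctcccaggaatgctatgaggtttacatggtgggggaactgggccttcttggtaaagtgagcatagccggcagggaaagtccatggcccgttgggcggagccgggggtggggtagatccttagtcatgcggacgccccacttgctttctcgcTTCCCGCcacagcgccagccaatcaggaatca
Uhrf1, inner start: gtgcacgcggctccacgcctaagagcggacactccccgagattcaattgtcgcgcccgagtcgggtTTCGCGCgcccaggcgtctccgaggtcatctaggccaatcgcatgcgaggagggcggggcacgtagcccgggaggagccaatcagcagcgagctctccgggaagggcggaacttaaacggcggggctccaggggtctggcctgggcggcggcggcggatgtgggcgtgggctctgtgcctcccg
The core begins 48 bases before the outer start and 184 bases before the inner one. The letters are a match only, since binding was not measured here.

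Hells (ENSMUSG00000025001, chr19:38930915-38971051, plus strand), the remodeler that opens packed chromatin to the methyltransferases, was the second maintenance factor to fall. Its level was 6.41, 5.98, 9.02 and 9.05 RPKM at 1 week, against 1.46, 1.94, 1.45 and 0.954 RPKM at 3 weeks. All samples at 3 weeks lay below all samples at 1 week. The log2 fold change was -2.22 (SE 0.25, adjusted p = 0.000450, edgeR). That is a 4.67-fold fall, on 879 to 1150 exon reads at 1 week and 101 to 230 at 3 weeks. Before the Hells start in RefSeq a pair of cores lies close together, at 61 and 43 bases, the second on the opposite strand. The 30 bases that hold both (chr19:38930927-38930956) are shown for this arrangement, and they lie within the first exon of a GENCODE transcript with an earlier start.
Hells: ttTTCCCGCgaaagagaagcGCGCGAAttt

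Dnmt1 (ENSMUSG00000004099, chr9:20907209-20959888, minus strand), the maintenance methyltransferase, did not pass the test. It had 4.30, 5.12, 10.7 and 12.7 RPKM at 1 week, and 4.32, 2.70, 0.734 and 3.85 RPKM at 3 weeks. The groups overlapped only where replicate 1 of 3 weeks (4.32) exceeded replicate 1 of 1 week (4.30). The log2 fold change was -1.37 (SE 0.51) with an adjusted p of 0.0673 and an unadjusted p of 0.0245 in edgeR's quasi-likelihood test over all genes. In DESeq2 the adjusted p was 0.0217, with a correction for GC content and length in edgeR it was 0.0287, and over all 22 alternatives it ranged from 0.0217 to 0.172, so the call depended on the method. The fold change was negative in each of them.

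Uhrf2 (ENSMUSG00000024817, chr19:30030513-30093722, plus strand) is the paralog of Uhrf1, which binds hydroxymethylated DNA and is not known to replace Uhrf1 in maintenance. It had 6.17, 7.02, 4.49 and 3.68 RPKM at 1 week and 3.79, 3.96, 3.72 and 3.35 RPKM at 3 weeks. Replicates 1 and 2 of 1 week were high, and the other 6 samples lay within a narrow range. Its log2 fold change was -0.36 (SE 0.21, adjusted p = 0.210, edgeR), and the groups overlapped. Within the 1 week samples Uhrf2 was lowest where Uhrf1 was highest, in replicates 3 and 4. The 250 bases before the Uhrf2 start (chr19:30030263-30030512) are shown beside those of Uhrf1 because the paralogs differed in their change. They hold the core TTGGCGC at 57 bases before the start.
Uhrf2: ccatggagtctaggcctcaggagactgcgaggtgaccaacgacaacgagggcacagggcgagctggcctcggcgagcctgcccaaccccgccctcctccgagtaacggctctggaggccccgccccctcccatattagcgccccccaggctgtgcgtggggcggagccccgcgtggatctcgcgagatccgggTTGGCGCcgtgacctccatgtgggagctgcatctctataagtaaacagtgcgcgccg

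Dnmt3b (ENSMUSG00000027478, chr2:153649450-153687730, plus strand), a de novo methyltransferase best known from embryonic cells, was low at 1 week and fell after 3 weeks. Its level was 1.10, 1.34, 1.21 and 1.29 RPKM at 1 week, the tightest of the 9 genes at 1 week relative to its mean (1.24 ± 0.104, SD, n = 4). At 3 weeks it was 0.273, 0.203, 0.131 and 0.253 RPKM, which rests on 26, 17, 11 and 19 exon reads. The log2 fold change was -2.36 (SE 0.24, adjusted p = 0.000363, edgeR), a 5.14-fold fall. Of its exon reads 90.5% mapped to a single place, against at least 99.7% for each of the other 8 genes. The fold is compressed by a pseudocount: on the log2(RPKM + 1) scale it was -0.88. The 250 bases before its start (chr2:153649199-153649448) are shown as a contrast to Uhrf1 and Hells, since this gene fell and its window holds none of the 4 cores.
Dnmt3b: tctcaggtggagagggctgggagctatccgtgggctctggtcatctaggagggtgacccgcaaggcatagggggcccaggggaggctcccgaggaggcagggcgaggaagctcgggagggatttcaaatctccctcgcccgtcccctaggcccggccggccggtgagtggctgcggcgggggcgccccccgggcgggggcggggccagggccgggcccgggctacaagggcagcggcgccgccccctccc

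Dnmt3a (ENSMUSG00000020661, chr12:3806007-3914443, plus strand), the other de novo enzyme, is known to act at enhancers in epidermal stem cells. It had 1.27, 1.58, 2.74 and 2.64 RPKM at 1 week and 1.76, 1.36, 0.413 and 2.82 RPKM at 3 weeks. The groups overlapped, and the 3 weeks samples included both the highest and the lowest value of the 8. Its log2 fold change was -0.24 (SE 0.47, adjusted p = 0.723, edgeR), and it was 0.04 without replicate 3 of 3 weeks and -0.65 without replicate 4 of 3 weeks, neither past the threshold.

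Among the Tet genes, Tet3 (ENSMUSG00000034832, chr6:83362373-83459084, minus strand) made up most of the RPKM, between 87.3% and 97.2% of the sum of the 3 genes in every sample. It had 1.10, 1.19, 1.70 and 1.92 RPKM at 1 week and 1.99, 1.18, 0.255 and 2.90 RPKM at 3 weeks. Its log2 fold change was 0.22 (SE 0.54, adjusted p = 0.784, edgeR). Replicates 3 and 4 of 3 weeks were the lowest and the highest of all 8 samples. Without the former the log2 fold change was 0.55, and without the latter it was -0.22.

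Tet2 (ENSMUSG00000040943, chr3:133463679-133545139, minus strand), an enzyme best known from blood cells, was near the limit of detection. It had 0.0280, 0.101, 0.0785 and 0.229 RPKM at 1 week and 0.153, 0.0793, 0.0108 and 0.404 RPKM at 3 weeks, from 3 to 100 exon reads per sample. The log2 fold change was 0.68 (SE 0.86, adjusted p = 0.577, edgeR) and became 1.05 without replicate 3 of 3 weeks and -0.26 without replicate 4 of 3 weeks, so no direction can be given. Tet1 (ENSMUSG00000047146, chr10:62804570-62908996, minus strand), the family member of pluripotent and germ cells, had 1, 8, 3 and 2 exon reads at 1 week and 0, 4, 0 and 4 at 3 weeks, too few for the test. With no filter on low counts its log2 fold change was -0.52 (SE 0.99, adjusted p = 0.742, edgeR). A count of 0 allows up to 3 reads, which corresponds to between 0.00942 and 0.0135 RPKM in these libraries, counting error only.

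**Figure D2:**
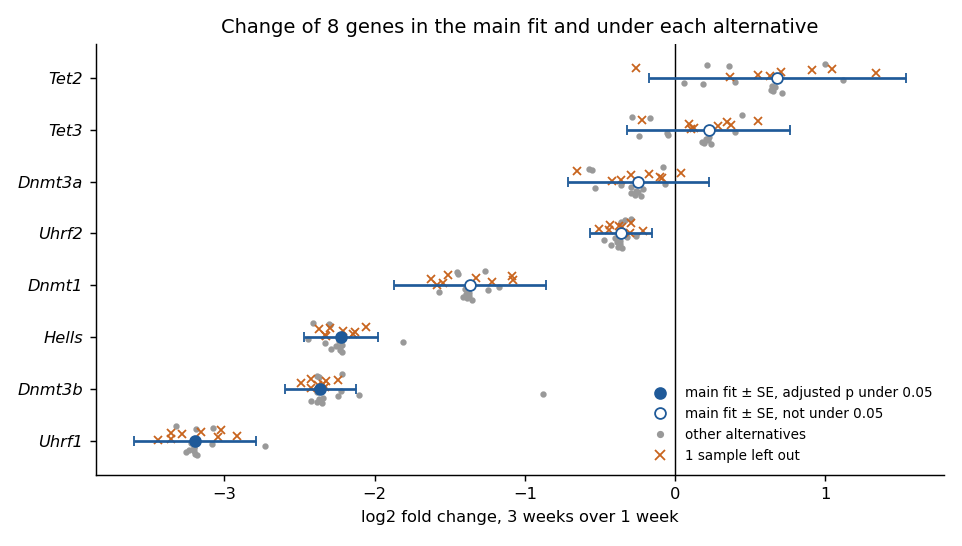
Log2 fold change (horizontal axis, 3 weeks over 1 week) of the 8 tested genes. Circles show the main fit ± SE, filled where the adjusted p was under 0.05, grey points show other alternatives and crosses show fits with 1 sample left out. Uhrf1, Hells and Dnmt3b stay below 0 in every fit, with the Dnmt3b value of -0.88 on the log2(RPKM + 1) scale nearest to it, whereas Tet2, Tet3 and Dnmt3a lie on both sides of 0.

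The exons of Dnmt3a, Tet2 and Tet3 sum to 16642, 16870 and 16695 bases and are longer than 98.3%, 98.5% and 98.4% of the tested genes. Uhrf2 (8590 bases) is longer than 85.8%, Dnmt1 (7377 bases) and Hells (7205 bases) are longer than 79.4% and 78.3%, Dnmt3b (5106 bases) than 59.6% and Uhrf1 (4259 bases) than 48.7%. In replicate 3 of 3 weeks, the log2 level deviated from its group mean by -1.50 for Dnmt1, -1.45 for Dnmt3a, -1.75 for Tet2 and -1.94 for Tet3, against -0.34 for Dnmt3b, -0.14 for Uhrf1, 0.18 for Hells and 0.15 for Uhrf2. Over the 363 genes above the 75th percentile of both length and GC content, the median deviation in that library was -0.69. Hells has the lowest GC content of the 9 genes (37.7%), Tet2 has 45.4%, Uhrf2 47.2% and Dnmt3a 51.9%. It is 53.1% for Dnmt3b, 53.4% for Tet3, 53.7% for Uhrf1 and 54.0% for Dnmt1. The part of transcript length and base composition in these differences was not tested. The falls of Uhrf1, Hells and Dnmt3b were -3.16, -2.30 and -2.24 without that library, close to those with it.

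**Figure D3:**
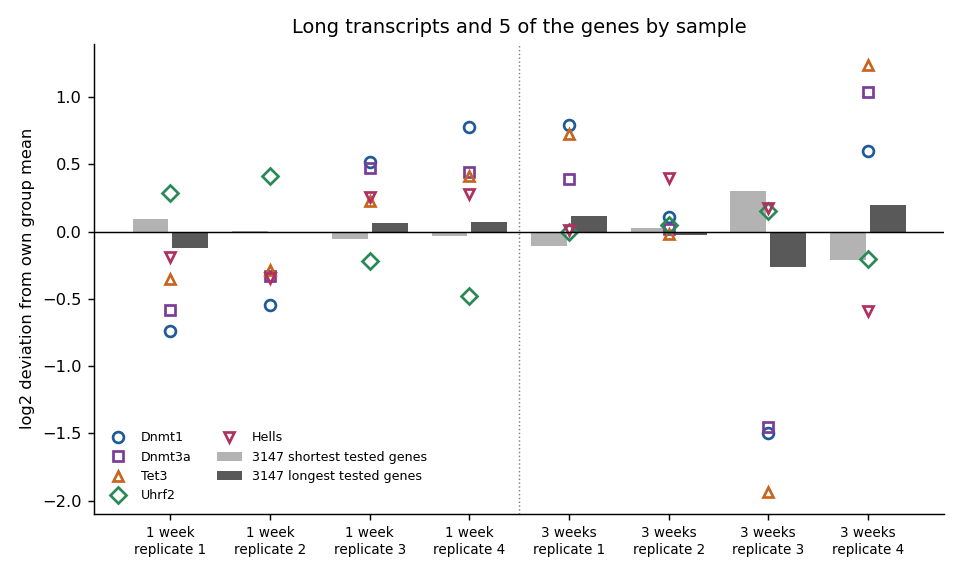
Deviation of the log2 level from the mean of its own group (vertical axis) in each of the 8 samples, as bars for the median of the 3147 shortest and the 3147 longest of the tested genes and as symbols for 5 of the 9 genes. In replicate 3 of 3 weeks the bar of the long genes is at -0.27, and Dnmt1, Dnmt3a and Tet3 lie far below it, while Uhrf2 and Hells lie above 0.

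The intron reads of the same genes showed which part of the signal changed in that library. Dnmt3a had 6 to 11 intron reads per sample at 1 week, and 23, 8, 33 and 8 at 3 weeks. In replicate 3 of 3 weeks, 33 of its 146 gene reads (22.6%, 95% Wilson interval 16.6% to 30.04%) were intronic, against 0.908% to 4.05% in the other 7 samples. Tet3 behaved alike, with 13 of 83 reads (15.7%, 9.39% to 24.98%) in that library and at most 2.99% elsewhere. Exon reads of both genes were therefore low there while intron reads were not. Dnmt3b had 11 intron reads of 464 gene reads at 1 week (2.37%) and 9 of 82 at 3 weeks (11.0%), so its intron reads did not fall in proportion to its exon reads, on very few reads. Uhrf2 was the most intronic of the well covered genes, with 503 intron reads in all (8.41% of its gene reads), and between 5.96% and 14.02% per sample. Dnmt1 and Uhrf1 had 0.285% and 0.503% over all samples. Opposite-strand genes overlap Dnmt3a, Dnmt3b, Tet2 and Tet3, and whether reads were counted by strand is not stated, but none of these partners had a mean of more than 1.38 exon reads per sample.

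To compare members without the swings that all genes of a sample share, 5 ratios of RPKM were formed within each sample on the log2 scale, after adding 0.1 RPKM. A trend with transcript length, as in replicates 3 and 4 of 3 weeks, does not cancel where lengths differ. Dnmt3a (16642 bases) was set against Dnmt1 (7377) and Dnmt3b (5106), and Uhrf2 (8590) against Uhrf1 (4259). An exact permutation test (two-sided, 70 arrangements) compared each ratio between the times. The smallest p it can give is 0.0286, and p-values were adjusted over the 5 ratios. The ratio of Uhrf1 to Uhrf2 was 0.71, 0.92, 2.55 and 3.04 at 1 week and -0.64, -0.54, -1.22 and -1.31 at 3 weeks. Uhrf1 was the more abundant paralog in every 1 week sample and Uhrf2 in every 3 weeks sample. The difference was -2.73 (exact p = 0.0286, adjusted 0.0476).

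The ratio of Dnmt1 to Dnmt3a was 1.69, 1.64, 1.93 and 2.22 at 1 week and 1.25, 0.94, 0.70 and 0.44 at 3 weeks. Although neither gene passed the test alone, their ratio did not overlap between the times and differed by -1.04 (exact p = 0.0286, adjusted 0.0476). Dnmt3b to Dnmt3a went from -0.19, -0.22, -1.11 and -0.98 to -2.31, -2.27, -1.15 and -3.05, a difference of -1.57 (exact p = 0.0286, adjusted 0.0476), with replicates 3 of the groups nearly touching. For comparison, 37.0% of the tested genes did not overlap between the times in RPKM, a share of single genes and not of ratios. With 1 RPKM added in place of 0.1, Uhrf1 to Uhrf2 differed by -2.33 and Dnmt1 to Dnmt3a by -0.948, both with an exact p of 0.0286, which gave 0.0714 after adjustment. Dnmt3b to Dnmt3a then differed by -0.585 (exact p = 0.114, adjusted 0.190). Tet3 to Tet2 differed by -0.43 (exact p = 0.257, adjusted 0.321) and Hells to Dnmt1 by -0.76 (exact p = 0.343, adjusted 0.343), and both overlapped.

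Seen as shares, Dnmt3a made up 19.0%, 19.6%, 18.7% and 15.9% of the summed RPKM of Dnmt1, Dnmt3a and Dnmt3b in the 1 week samples, and 27.7%, 31.9%, 32.3% and 40.7% in the 3 weeks samples. All of the latter were higher. The share of Dnmt1 was 69.4% ± 6.24 (SD, n = 4) at 1 week and 61.1% ± 5.67 at 3 weeks, and that of Dnmt3b 12.3% ± 4.95 and 5.74% ± 3.04. Both overlapped between the times, for Dnmt3b through replicate 3 of 3 weeks (10.3%), above replicates 3 and 4 of 1 week (8.29% and 7.76%). The sum of the shares is fixed, so a larger share of Dnmt3a does not mean a higher level.

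**Figure D4:**
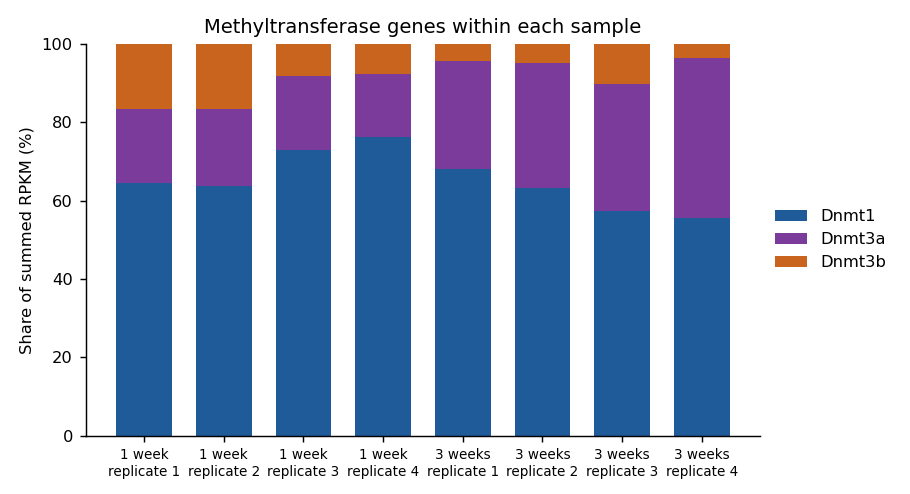
Share of Dnmt1, Dnmt3a and Dnmt3b in the sum of their RPKM (vertical axis, percent) in each sample of 1 week and 3 weeks. Dnmt3a takes 15.9% to 19.6% at 1 week and 27.7% to 40.7% at 3 weeks.

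By mean RPKM, the order at 1 week was Uhrf1 (20.3 ± 10.1, SD, n = 4), Dnmt1 (8.19 ± 4.11), Hells (7.61 ± 1.65), Uhrf2 (5.34 ± 1.53), Dnmt3a (2.06 ± 0.746), Tet3 (1.47 ± 0.396), Dnmt3b (1.24 ± 0.104), Tet2 (0.109 ± 0.0853) and Tet1 (0.0124 ± 0.00949). Of the neighbours in this order, only Uhrf2 and Dnmt3a, Dnmt3b and Tet2, and Tet2 and Tet1 did not overlap. At 3 weeks Uhrf2 led (3.71 ± 0.256), before Dnmt1 (2.90 ± 1.596), Uhrf1 (1.98 ± 0.671), Dnmt3a (1.59 ± 0.996), Tet3 (1.58 ± 1.13), Hells (1.45 ± 0.403), Dnmt3b (0.215 ± 0.0634), Tet2 (0.162 ± 0.171) and Tet1 (0.00834 ± 0.00966). Here only Hells and Dnmt3b were apart among neighbours. All 4 samples of Uhrf2 (3.35 to 3.96) lay above those of Uhrf1, Dnmt3a, Tet3 and Hells, of which the highest reached 2.90, and overlapped with Dnmt1. The ranks from Dnmt1 to Hells cannot be read as an order.

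RefSeq lists 14 start windows for the 9 genes, each with 250 bases before and 50 after the start. At least 1 of the 4 cores was found in 5 of these windows and in 4 of the 9 genes (Uhrf1, Hells, Uhrf2 and Dnmt1), and in 9.57% of the 32851 windows of all genes. The share over all genes, rather than over windows, was not computed. Each of the 4 cores contains CG, a cytosine followed by a guanine. The windows with a core had CG counts of 33 (Dnmt1), 12 and 33 (Uhrf1), 28 (Uhrf2) and 34 (Hells). Those of the 9 genes without a core had 2 to 57. Over all windows the median CG count was 7 and the upper quartile 20. Windows of like CG count were not compared. Uhrf1 and Hells fell and have a core, and Dnmt3b fell and has none. Uhrf2 and Dnmt1 have a core and did not pass the test in the main fit, though Dnmt1 passed in 3 of 22 alternatives. Dnmt3a, Tet2 and Tet3 have none and did not pass. Whether a core has a part in any change was not tested.

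The genes whose profile over the 8 samples was most like each member were found by the smallest root mean square distance between centred log2 CPM values, with candidates limited to genes averaging 10 CPM or more. For Uhrf1 these were Cep55, which acts in the last step of cell division, Ercc6l, a helicase of mitotic chromosomes, and Iqgap3 (distances 0.22 to 0.23). For Hells they were Cip2a, Mcm2, a subunit of the replicative helicase, and Tacc3, a spindle protein (0.07 to 0.09). Dnmt3b was less closely matched, by the monocarboxylate transporter Slc16a1, the ubiquitin ligase Rad18, of postreplication repair, and Rapgef5 (0.27 to 0.28), and Dnmt1 by Nolc1, Fat2 and Bcor (0.25 to 0.30). The long genes Dnmt3a, with Cdk5rap2 and Pcm1, and Tet3, with Upf1 and Zfp609, had near neighbours at distances of 0.14 and 0.15 and of 0.09 and 0.13.

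Genes of DNA replication and division moved with the falling members. Of 12 S phase and mitosis markers, 11 fell and none rose in edgeR or in DESeq2, with a median log2 fold change of -2.62. In edgeR, 17.0% of all tested genes were called lower. Ccna2, the cyclin of S phase and G2, had a log2 fold change of -3.903, the helicase subunit Mcm6 one of -3.37, topoisomerase Top2a one of -3.32 and Mcm5 one of -3.07 (adjusted p from 0.000204 to 0.000962, edgeR). The exception was E2f1, at -0.11 (adjusted p = 0.648, edgeR). The summed RPKM of the 12 genes was 238, 204, 395 and 449 at 1 week and 58.2, 66.0, 54.6 and 34.8 at 3 weeks. Replicates 3 and 4 of 1 week were the high ones, as they were for Uhrf1, Dnmt1 and Hells and for the melanocyte markers, but not for Dnmt3b. They were also the high ones for Dnmt3a and Tet3, which did not pass the test. There the longest tested genes deviated by 0.12 and 0.10 log2 units more than the shortest, against -0.22 and -0.01 in replicates 1 and 2. The part of the share of dividing cells, or of melanocytes, in the falls of Uhrf1, Hells and Dnmt3b was not tested.

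Of 17 partners of the methylation enzymes, 15 were tested, 7 fell and none rose, with a median log2 fold change of -0.35. Over all tested genes, 17.0% were called lower and 15.7% higher. In DESeq2, 1 gene of the list was higher, as was 1 at an unadjusted p under 0.05. The falls were largest for Cdca7 (-2.72, adjusted p = 0.000330, edgeR), which recruits Hells to chromatin, and for the replication ligase Lig1 (-2.68, adjusted p = 0.000694, edgeR), a partner of Uhrf1. Cdca7 had 16.5, 14.4, 13.5 and 16.6 RPKM at 1 week and 2.58, 2.43, 2.11 and 1.08 RPKM at 3 weeks, an even level at 1 week that did not follow the S phase sum. Its paralog Cdca7l fell by 2.00 and the H3K9 methyltransferase Suv39h2 by 1.93 on the log2 scale (adjusted p = 0.000184 and 0.000502 in edgeR). For Cdca7l 77.9% and for Suv39h2 54.3% of the exon reads mapped to a single place, so these values are less certain. The same holds for Pcna (45.7%) and Suv39h1 (11.8%), which are also among the 7 falls. The list also had 7 falls with unique reads, and between 6 and 8 over the alternatives. The deubiquitinase Usp7, the histone deacetylases Hdac1 and Hdac2, and the H3K9 methyltransferases Ehmt1, Ehmt2 and Setdb1 did not pass the test. Dppa3, an inhibitor of Uhrf1 in germ cells, had no read in any sample, and Dnmt3l, the cofactor of Dnmt3a and Dnmt3b in germ cells, was below the limit of the test.

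The genes of proteins that read methylated DNA gave 1 fall and 1 rise, where 17.0% of all tested genes were called lower and 15.7% higher. Of 10 genes tested, Mbd4, a glycosylase that removes thymine from mismatches at methylated sites, fell by 0.63 on the log2 scale (adjusted p = 0.0437, edgeR) and Zbtb4, a zinc finger reader, rose by 1.00 (adjusted p = 0.00447, edgeR). Zbtb4 had 4.04, 5.13, 4.21 and 3.57 RPKM at 1 week and 8.45, 7.68, 4.72 and 9.69 RPKM at 3 weeks, with replicate 3 of 3 weeks again the low one and inside the range of 1 week. The median log2 fold change of the readers was 0.32. Mbd4, with 63.7% of its reads unique, is the less certain of the pair. It was called in 8 of 22 alternatives, and Zbtb4 in all 22. The list had between 0 and 3 falls and between 1 and 3 rises over the alternatives.

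Among the factors that act after or beside the Tet enzymes, calls went in both directions. Of 18 genes, 16 were tested, 3 fell and 2 rose, with a median log2 fold change of -0.27. These counts are near the shares over all tested genes (17.0% lower and 15.7% higher). Neil3, a glycosylase of dividing cells, changed by -3.32 on the log2 scale (adjusted p = 0.00357, edgeR), from 0.434 ± 0.178 RPKM to 0.0367 ± 0.0279 (SD, n = 4 each), and the repair scaffold Xrcc1 by -0.72 (adjusted p = 0.00251, edgeR). Tdg, also called lower, is less certain, since 14.9% of its exon reads mapped to a single place. Polb, the polymerase of base excision repair, rose by 0.54 (adjusted p = 0.0309, edgeR). Gadd45g, a stress-induced gene linked to demethylation, rose by 2.77 (adjusted p = 0.00885, edgeR). Its level was 2.91, 4.01, 3.62 and 2.56 RPKM at 1 week and 20.4, 7.83, 5.502 and 48.3 RPKM at 3 weeks. All 3 weeks samples were higher, by very different amounts. The counts of this list were not stable, with between 2 and 7 falls and between 1 and 3 rises over the alternatives. Gadd45g was called in all 22 of them, and Polb in 11.

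The supply of methyl groups and of oxoglutarate, the cosubstrate of the Tet enzymes, was represented by 19 genes. Of these, 18 were tested, 8 fell and none rose (0 at an unadjusted p under 0.05, 0 in DESeq2), with a median log2 fold change of -0.50. The shares over all tested genes were 17.0% lower and 15.7% higher. Over the alternatives the list had between 6 and 13 falls, with 12 without replicate 3 of 3 weeks, and up to 1 rise. Mthfd1 and Mthfd2, folate enzymes that feed the one-carbon pool, fell by 1.65 and 1.26, mitochondrial Idh2 by 1.59 and the methionine synthase reductase Mtrr by 1.09 on the log2 scale (adjusted p from 0.000213 to 0.00370, edgeR). Of the exon reads of Mthfd1, 78.1% mapped to a single place, and 37.5% of those of Gnmt, which was also called lower. Mat2a, which makes the methyl donor, was at 0.07 (adjusted p = 0.655, edgeR), and Idh1 at -0.12 (adjusted p = 0.633, edgeR).

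**Figure D5:**
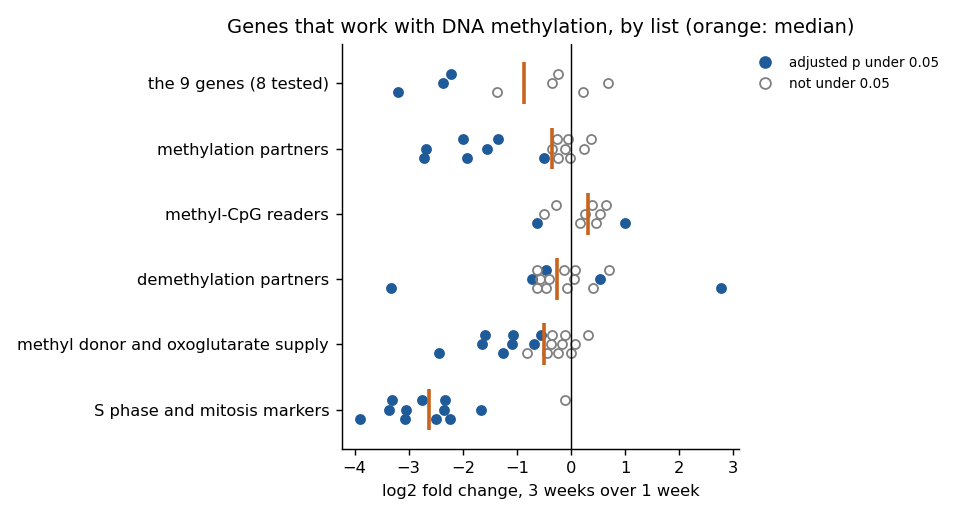
Log2 fold change (horizontal axis, 3 weeks over 1 week) of each tested gene in 6 lists, filled where the adjusted p was under 0.05, with an orange line at the median of the list. The median is -2.62 for the S phase and mitosis markers, -0.86 for the 8 tested genes of the 9, and between -0.50 and 0.32 for the other lists.

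Germline genes whose promoters are known to be kept silent by methylation were listed as well. Nearly all had too few reads for the test, so their RNA cannot tell whether methylation changed or held. Of 18 such genes, 7 had no read in any sample, and only Tdrd1 had enough reads to be tested (log2 fold change -0.23, adjusted p = 0.793, edgeR). Their summed RPKM lay between 0.342 and 0.587 at 1 week and between 0.407 and 0.603 at 3 weeks, with overlap, and no gene had more than 28 exon reads in a sample. With no filter on low counts, 11 of them were tested and 1 was called higher (Mov10l1, log2 fold change 3.53, SE 1.04, adjusted p = 0.0342, edgeR). Mov10l1, a helicase of the germline small RNA pathway, had 0, 1, 0 and 0 exon reads at 1 week and 8, 1, 4 and 2 at 3 weeks. The counts met at 1 read, while the RPKM values did not overlap (at most 0.0116 at 1 week, at least 0.0145 at 3 weeks). DNA methylation itself was not measured.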

How the data were processed

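Poly(A) libraries were made by the authors, and trimmed reads were aligned by them to GRCm38 in the CLC Genomics Workbench. The deposited counts are whole, unnormalized numbers of reads on exons, on exons uniquely, on the gene and on introns, and the other deposited values used here are RPKM, written with decimal commas. The strand setting and annotation release are not given in the sources used here. Batches of KCs were shared between the times per the study, but the labels tie no sample to a batch, and all 8 samples were tested unpaired, as in the study's statistics, with edgeR 4.0.16 in R 4.3.3 (filterByExpr, TMM, glmQLFit and glmQLFTest), at an adjusted p of 0.05. Standard errors were derived from the F statistics. The fit was checked on simulated counts. Ratios and intervals were computed in Python 3.11.15, and DESeq2 1.42.0 and limma 3.58.1 served as alternatives.

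The 9 genes, the partner lists and the tests were chosen with earlier results of these data known. All 9 genes are named, as are up to 4 called genes per list by size of change (mean of at least 1 CPM), the 3 nearest profiles of a gene, and other list genes whose values are stated, the latter chosen after their values were seen. Intervals and limits cover counting error only. Replicates of one time differed by more than sampling noise (chi-square per degree of freedom of at least 14.6).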

Additional observations from a re-analysis of the deposited data

How the results depend on the processing

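For the 9 genes, their ratios and the calls over all genes, 277 of 291 recomputed values stayed the same by a rule for each kind. Tested fold changes and ratios had to keep their direction and side of the threshold. Counts of calls had to stay within 1.5 times of the main count. Ratios with 1 sample left out were not tested, and had to keep their direction and move by less than 1 SD within the groups. Of 484 recomputed counts of calls in the partner and marker lists, 418 stayed within 1.5 times of the main count, 35 were lower and 31 higher. The exceptions among the former follow, and their cause was not tested unless the setting shows it. Dnmt1 passed the threshold in DESeq2 (log2 fold change -1.35), after the GC content and length correction (-1.44) and in a set of 6 samples (-1.26). These 6 are the samples whose file names carry 1 of the 3 numbers found at both times. The last pair of settings was added after the data were seen. Tet3 reversed with limma on log2(RPKM + 0.1) (-0.24) and log2(RPKM + 1) (-0.044), with the replicate block (-0.051), after the GC content and length correction (-0.17) and after that correction with the block (-0.28). With 1 sample left out, Tet3 ranged from -0.22 to 0.55, Tet2 from -0.26 to 1.34 and Dnmt3a from -0.65 to 0.039. With 1 RPKM added, the ratio differences were -2.33 (Uhrf1 to Uhrf2), -0.585 (Dnmt3b to Dnmt3a) and -0.948 (Dnmt1 to Dnmt3a), no longer past the threshold.

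The labels do not say whether replicate numbers pair the samples. Same-numbered samples had correlations of their deviations between -0.23 and 0.25, and differently numbered samples between -0.29 and 0.42. These correlations cannot decide whether the replicate number pairs samples. With this number as the block, 2867 genes were called against 4127 without it, Uhrf1, Hells and Dnmt3b stayed below an adjusted p of 0.05 (log2 fold changes -3.08, -2.24 and -2.38, edgeR), and no other call of the 9 genes changed. The study states that batches of KCs were shared between the times, and the labels do not say which. The file names carry a number that may mark a preparation of KCs, though the labels do not say so. Of these numbers, 3 occur at both times, with correlations between -0.23 and 0.25. With this number as the block, 3109 genes were called and the same 3 of the 9 genes fell. The split of called genes moved from 1981 higher and 2146 lower to 1292 and 3025 with limma on log2(RPKM + 0.1). Tet1 and Tet2 gave no value with at least 10 reads required in every sample. With 4 samples a group and few reads, changes of Tet1 and Tet2 could not be resolved.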
